A study of Mus musculus with 9 samples.

Results

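The comparison set splenic CD8+ T cells treated for 24 h with 1 nM of a cytokine, interleukin-2 (IL-2) in one library and interleukin-15 (IL-15) in the other, against cells treated for 4 h at the same dose. It used 4 of the 9 RNA sequencing libraries of the series: IL-2 at 1 nM for 24 h, IL-15 at 1 nM for 24 h, IL-2 at 1 nM for 4 h and IL-15 at 1 nM for 4 h. The remaining 5 libraries were IL-2 or IL-15 at 500 nM for 24 h or 4 h, and cells that received no cytokine. The mice were C57BL/6 females aged 6 weeks, and each library was made from the pooled RNA of 3 samples treated alike. The labels name no sorting step. Every condition therefore had 1 library, and the 2 cytokines stood in as the 2 libraries of each time. The labels give no cells cultured without cytokine for 4 h or 24 h, so time with cytokine and time in culture cannot be told apart. Values are read counts with 1 transcript per gene, scaled to one common library size by TMM (CPM), and they are listed with IL-2 before IL-15 at each time. A gene was said to rise or fall when its adjusted p was under 0.05 (edgeR's quasi-likelihood test, Benjamini-Hochberg over 13479 genes) and its CPM moved the same way with both cytokines. With no second library of any condition, the p-values rest on the scatter of the treated libraries around the fitted effects, part of which may be technical. The untreated library had its own term and added nothing to that scatter. The fit left 3 residual degrees of freedom, and edgeR added a prior drawn from all genes, with a median of 9.18 degrees of freedom.

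IL-2 and IL-15 are growth and survival factors of T cells that share the receptor chains IL-2R beta and gamma c and signal through JAK kinases to the transcription factor STAT5. The IL-2 receptor alpha chain, made by activated cells, raises the affinity for IL-2, while IL-15 is normally presented by the IL-15 receptor alpha chain. Transcripts of the AP-1, NR4A and NF-kB systems are typically short-lived: they are induced soon after a stimulus and are held in check by inhibitors that the same factors induce.

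The 4 libraries held between 27158143 and 48799962 counts, the 4 h IL-15 library fewest and the 24 h IL-2 library most. A count of 0 allowed a level of up to 0.0615 CPM in the deepest of them and 0.110 CPM in the shallowest (3 counts of the total). Such limits, and the intervals given with ratios, cover counting error only, since reads amplified by PCR and not tagged per molecule are not independent. Cd8a, the CD8 alpha chain, had 661 and 644 CPM at 24 h, against 393 and 434 CPM at 4 h, and the 16 listed T cell receptor and CD8 genes summed to 7511 to 7662 CPM at 24 h, against 5350.2 to 5399 CPM at 4 h. The labelled cell type was thus present at both times. Markers of other spleen cells were present as well: myeloid and macrophage markers summed to 1016 to 1257 CPM at 24 h, against 359 to 366 CPM at 4 h, and dendritic cell markers to 1299.6 to 1587 CPM at 24 h, against 2341 to 2457 CPM at 4 h. In such bulk RNA, more or fewer cells of a type and more or less RNA per cell cannot be told apart.

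Of the 13479 genes tested, 204 rose (1.51%) and 186 fell (1.38%), 390 in all (2.89%). The median rise was 1.24 and the median fall -1.39 on the log2 scale, and 39 genes rose and 38 fell at least 4-fold. Genes that fell included NF-kB feedback genes, immediate early genes, interleukin-1 genes, inducible heat shock genes and a few antiviral genes. Genes that rose included macrophage genes, granzymes, chemokine receptors, T cell receptor genes and some glycolytic genes. By size alone, with no test, 706 of 11458 genes with enough counts differed at least 2-fold with both cytokines (6.16%), 398 higher at 24 h (3.47%) and 308 lower (2.69%). The plot of changes by cytokine shows both sets. The call rule required the same direction with IL-2 and with IL-15, so the agreement of all 390 is not a result. IL-2 showed the larger change in 198 of them. When 1 library was left out, direction was checked in the intact cytokine pair only, and the genes called were not all among the 390. The count was 73 without the 4 h IL-2 library, 102 without the 4 h IL-15 library, 186 without the 24 h IL-2 library and 330 without the 24 h IL-15 library, and 42 of the 390 genes passed in all 4 of these fits.

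NF-kB transcripts fell together. NF-kB is a family of dimeric transcription factors held in the cytoplasm by IkB proteins, and it induces its own inhibitors. Of 16 listed subunits and feedback genes 11 fell and none rose, against 1.38% and 1.51% of all genes tested, and the median change over the 16 was -1.21 (log2), against 0.03 over all genes. Tnfaip3, which encodes the ubiquitin-editing inhibitor A20, had 47.8 and 50.8 CPM at 24 h, against 304 and 205 CPM at 4 h. Both 24 h libraries lay below both 4 h libraries, and the gene fell by 2.36 ± 0.23 on the log2 scale (SE; edgeR adjusted p = 0.000367). The untreated library held 48.4 CPM.

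Relb, a subunit of the non-canonical dimer, had 107 and 89.9 CPM at 24 h, against 337 and 294 CPM at 4 h, and fell by 1.68 ± 0.17. Its partner precursor Nfkb2 had 122 and 121 CPM at 24 h, against 398 and 366 CPM at 4 h, and fell by 1.65 ± 0.18. Rel, the c-Rel subunit that lymphocytes use, had 3.54 and 2.79 CPM at 24 h, against 14.7 and 14.2 CPM at 4 h, and fell by 2.20 ± 0.36. For all 3 subunits the 2 times were separate with either cytokine. Cd83, a surface protein induced on activation, had 84.8 and 73.6 CPM at 24 h, against 429 and 325 CPM at 4 h, and fell by 2.25 ± 0.23 on the log2 scale (SE; edgeR adjusted p = 0.000511). Nfkbia, encoding the inhibitor IkB alpha, fell by 1.08 ± 0.18, with 257 and 239 CPM at 24 h, against 476 and 570.4 CPM at 4 h. Bcl3, a nuclear IkB protein, was the member with the most unequal change: it had 52.1 and 24.9 CPM at 24 h, against 119 and 149 CPM at 4 h, so that it was lower at 24 h with both cytokines but further down with IL-15. Birc3, an inhibitor of apoptosis protein, fell by 0.94 ± 0.20. Tnip3, an A20-binding protein outside the list, was among the largest falls, with 0.0198 and 0.101 CPM at 24 h, against 4.04 and 6.76 CPM at 4 h, or 1 and 4 counts at 24 h. Nfkb2, Nfkbia and Birc3 were chosen after their values were seen. The edgeR adjusted p of these genes lay between 0.000367 for Tnfaip3 and 0.0295 for Birc3. Of the 9 genes named, Tnfaip3, Relb, Nfkb2 and Cd83 passed without each library in turn, and those that did not pass numbered 1 without the 24 h IL-2 library, 1 without the 24 h IL-15 library, 2 without the 4 h IL-2 library and 5 without the 4 h IL-15 library (edgeR adjusted p up to 0.149). The count of list members that fell was 6 of 16 without the 4 h IL-15 library and 8 or 9 without any of the others. Dendritic cells also express Cd83 and Relb. The sum of the dendritic cell markers was lower at 24 h (above), although 5 of the 15 markers had a positive change. The part of dendritic cells in these falls was not tested.

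The promoters of these genes are printed because they carry the letters that NF-kB is known to bind. In RefSeq windows of the GRCm38.p6 build, from 250 bases before to 50 after a gene's start, the kappa B consensus was searched on both strands, overlapping matches included. A match stood in 8 of the 12 listed NF-kB genes that had a window (66.7%), in 32 of 137 genes that fell (23.4%), in 19 of 153 that rose (12.4%) and in 1321 of 10654 of all genes tested (12.4%). Over single windows of the same length the share was 8.46%. A gene with several starts has several windows and counted once. The list was drawn up from NF-kB subunits and feedback genes, so its higher share is not a result. The 150 bases before 3 starts follow, 5′ to 3′ on the gene's strand, with matches in capitals.
Nfkbia (chr12:55492648-55492797, minus strand): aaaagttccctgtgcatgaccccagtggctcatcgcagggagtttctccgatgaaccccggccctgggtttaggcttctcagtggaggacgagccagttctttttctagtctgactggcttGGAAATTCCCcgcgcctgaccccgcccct
Tnfaip3 (chr10:19015411-19015560, minus strand): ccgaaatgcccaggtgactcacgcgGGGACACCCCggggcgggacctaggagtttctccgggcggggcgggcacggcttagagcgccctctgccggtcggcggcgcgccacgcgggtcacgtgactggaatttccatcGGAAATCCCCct
Nfkb2 (chr19:46304587-46304736, plus strand): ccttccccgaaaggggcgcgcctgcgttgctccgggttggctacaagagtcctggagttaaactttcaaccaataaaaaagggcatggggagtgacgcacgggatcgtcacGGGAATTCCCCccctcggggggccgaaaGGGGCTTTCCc
Nfkbia holds 1 match, which begins 29 bases before the start. Tnfaip3 holds 2, beginning 125 and 12 bases before it. In Nfkb2 the capitals cover 3 matches, of which those at 39 and 38 bases overlap and the other begins at 11. The stretches shown are those with a match: the 150 bases before another Tnfaip3 start and before 2 further Nfkb2 starts hold 0 matches. A match is a description of letters and does not show that a factor was bound.

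Immediate early genes, which cells transcribe within minutes of a stimulus without new protein synthesis, fell with them. Of 26 listed members 10 fell and 1 rose, against 1.38% and 1.51% of all genes tested, and the median change was -1.27. In 22 of 26 both 24 h libraries lay below both 4 h libraries, against 20.8% of all genes tested. Nr4a1, the nuclear receptor Nur77 that marks recent antigen receptor signalling in T cells, had 14.4 and 12.1 CPM at 24 h, against 87.3 and 84.8 CPM at 4 h. The libraries of each time nearly coincided, and it fell by 2.70 ± 0.21 on the log2 scale (SE; edgeR adjusted p = 6.89e-05). Its relative Nr4a2 had 4.53 and 3.37 CPM at 24 h, against 23.5 and 19.3 CPM at 4 h. Fosl2, the AP-1 subunit Fra-2, had 3.64 and 2.72 CPM at 24 h, against 35.1 and 33.9 CPM at 4 h, and its fall of 3.44 ± 0.30 was the largest among the members that passed (edgeR adjusted p = 0.000163). Fos, the founding AP-1 subunit, had 9.93 and 7.67 CPM at 24 h, against 32.7 and 23.4 CPM at 4 h, and Junb, its JUN-family partner, 332 and 303 CPM at 24 h, against 783 and 677 CPM at 4 h. Both were lower at 24 h in every pairing of libraries. The zinc finger factors Egr1 and Egr2 fell by 2.07 ± 0.25 and 2.31 ± 0.35. Dusp1, a phosphatase that switches off MAP kinases, had 30.0 and 38.6 CPM at 24 h, against 163 and 90.3 CPM at 4 h, and fell by 1.84 ± 0.26. Junb, Dusp1 and Ier3 were chosen after their values were seen. Ier3 was the member that rose, by 1.24 ± 0.25 on the log2 scale (SE; edgeR adjusted p = 0.0225), with 30.9 and 33.3 CPM at 24 h, against 12.0 and 15.2 CPM at 4 h. In untreated cells Egr1 had 94.5 CPM, above its 69.5 and 65.9 CPM at 4 h. Fos had 36.3 CPM there, also above both 4 h libraries. Junb had 549 CPM, Nr4a1 25.8 CPM and Fosl2 6.78 CPM in untreated cells, each between its 24 h and 4 h levels.

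Of 20 genes of cytosolic chaperones, the inducible HSP70 genes Hspa1a and Hspa1b fell and the others did not pass, against 1.38% of all genes tested that fell. The list median was -0.14. Hspa1a had 3.50 and 0.981 CPM at 24 h, against 28.8 and 21.1 CPM at 4 h, and fell by 3.58 ± 0.45 on the log2 scale (SE; edgeR adjusted p = 0.00209), and Hspa1b had 2.43 and 0.805 CPM at 24 h, against 19.4 and 12.2 CPM at 4 h. The 2 genes are near-identical copies whose reads may be split between them, so each value is uncertain by itself. With 1 library left out, the number of these 11 immediate early and heat shock genes that no longer passed was 1 without the 24 h IL-2 library, 1 without the 24 h IL-15 library, 5 without the 4 h IL-2 library and 2 without the 4 h IL-15 library (edgeR adjusted p up to 0.16), and Nr4a1, Nr4a2, Fosl2, Egr1, Fos and Hspa1a passed in all 4 fits. The count of immediate early genes that fell was 5 without the 4 h IL-2 library and between 8 and 13 without any of the others.

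**Figure D1:**
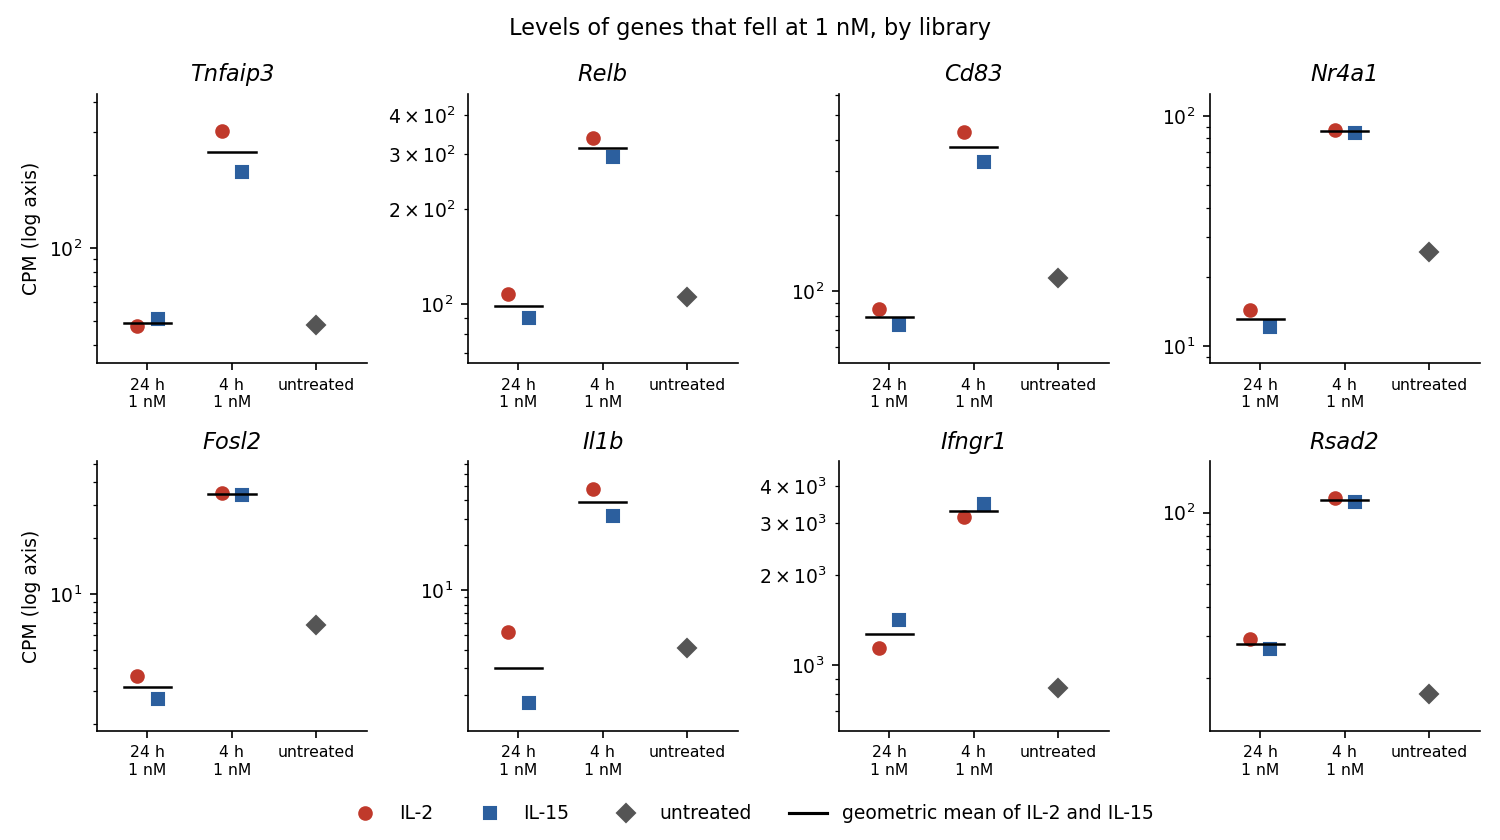
CPM on log axes of 8 genes that fell, by library. Circles are IL-2, squares IL-15 and diamonds untreated cells, and bars are the geometric mean of both cytokines. In all 8 panels the 2 libraries at 24 h lie below the 2 at 4 h, as with Tnfaip3 at 47.8 and 50.8 CPM at 24 h against 304 and 205 CPM at 4 h.

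A subset of antiviral genes fell. Type I interferon induces these through a transcription factor complex that binds the interferon-stimulated response element. Of 30 listed interferon response genes 5 fell and none rose, against 1.38% and 1.51% of all genes tested, and the list median was -0.23. Of the 30 changes 13 were positive and 17 negative, and the median was 0.09 with IL-2 and -0.87 with IL-15. The list summed to 6477 and 2303 CPM at 24 h, against 4011 and 4151 CPM at 4 h, so it did not fall as a whole with IL-2. Rsad2, which encodes viperin, had 29.1 and 26.5 CPM at 24 h, against 116 and 111 CPM at 4 h, and fell by 2.02 ± 0.30 on the log2 scale (SE; edgeR adjusted p = 0.00397). Oasl1, an oligoadenylate synthetase-like protein, had 19.8 and 18.9 CPM at 24 h, against 67.8 and 84.7 CPM at 4 h, and Ifit1, which binds foreign RNA caps, had 63.3 and 41.9 CPM at 24 h, against 192 and 179 CPM at 4 h. In each of these 3 genes both 24 h libraries lay below both 4 h libraries. The untreated library held 17.1 CPM, 20.4 CPM and 28.3 CPM of them in the same order. Usp18, a protease that restrains interferon receptor signalling, fell by 1.30 ± 0.26, and the dynamin-like GTPase Mx2 by 1.89 ± 0.41. Among the 5 genes named, the calls lost numbered 1 without the 24 h IL-2 library, 2 without the 24 h IL-15 library, 4 without the 4 h IL-2 library and 2 without the 4 h IL-15 library (edgeR adjusted p up to 0.312), with Oasl1 called in every such fit. The list's count of falls was 1 without the 4 h IL-2 library, 3 without either IL-15 library and 6 without the 24 h IL-2 library.

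The interferon-stimulated response element, searched as GAAA, any 2 bases and GAAA again on both strands of the same windows, stood in 14 of the 22 listed interferon genes that had a window (63.6%) and in 408 of 10654 genes tested (3.83%). It stood in 3.44% of all single windows, in 6 of 137 genes that fell (4.38%) and in 6 of 153 that rose (3.92%). The list was drawn up from interferon response genes, so its higher share is not a result. The stretch before the Ifit1 start, the printed example because it holds 2 matches, follows in the same form.
Ifit1 (chr19:34640739-34640888, plus strand): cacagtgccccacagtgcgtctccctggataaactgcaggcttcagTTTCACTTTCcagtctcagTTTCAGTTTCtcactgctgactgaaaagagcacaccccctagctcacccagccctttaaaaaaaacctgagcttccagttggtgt
Its matches begin 104 and 85 bases before the start and read on the opposite strand. The same stretch before the Rsad2 start holds 1 match, and that before the Oasl1 start holds 0.

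Interleukin-1 genes and their decoy receptor were among the largest falls. Il1b, encoding the inflammatory cytokine IL-1 beta, had 5.22 and 1.76 CPM at 24 h, against 47.9 and 31.6 CPM at 4 h, and fell by 3.64 ± 0.38 on the log2 scale (SE; edgeR adjusted p = 0.000511). Il1a, encoding IL-1 alpha, had 0.712 and 0.327 CPM at 24 h, against 6.35 and 3.02 CPM at 4 h, and Il1r2, the decoy receptor that captures IL-1, had 0.277 and 0.780 CPM at 24 h, against 11.0 and 9.13 CPM at 4 h. All 3 were lower in both 24 h libraries than in either 4 h library. Il1r2 fell by 4.31 ± 0.65, and the untreated library held 0.0323 CPM of it. IL-1 is made mainly by myeloid cells. The myeloid marker sum was higher at 24 h and the dendritic cell sum lower (above), and the part of either in these falls was not tested.

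Of 20 costimulatory and inhibitory receptors 3 fell and none rose, against 1.38% and 1.51% of all genes tested, and the list median was -0.12, with 7 of 20 higher at 24 h. The 3 were Pdcd1, Tigit and Tnfrsf18. Pdcd1, the inhibitory receptor PD-1, had 6.61 and 7.04 CPM at 24 h, against 21.5 and 23.3 CPM at 4 h, and fell by 1.71 ± 0.32. Tigit, another inhibitory receptor, had 4.71 and 1.56 CPM at 24 h, against 18.4 and 13.1 CPM at 4 h, and fell by 2.37 ± 0.56. Both genes were lower in both 24 h libraries than in either 4 h library. Tnfrsf18, the costimulatory receptor GITR, fell by 1.14 ± 0.26, with 72.0 and 57.9 CPM at 24 h, against 101 and 193 CPM at 4 h. Cd69, an early activation antigen that retains lymphocytes in tissue, had 17.0 and 7.92 CPM at 24 h, against 90.4 and 59.3 CPM at 4 h, and fell by 2.60 ± 0.39 on the log2 scale (SE; edgeR adjusted p = 0.00414). Ifngr1, the ligand-binding chain of the interferon gamma receptor, had 1139 and 1416 CPM at 24 h, against 3133 and 3473 CPM at 4 h, a fall of 1.37 ± 0.18 on the log2 scale (SE; edgeR adjusted p = 0.00239). Its 24 h levels were still above the untreated 839 CPM. Ccl4, a chemokine of activated T cells and myeloid cells, fell by 1.65 ± 0.25. Irf4 and Bach2, transcription factors that set effector and memory differentiation, fell by 1.45 ± 0.25 and 0.98 ± 0.22, with 14.7 and 10.6 CPM at 24 h, against 35.3 and 33.2 CPM at 4 h for Irf4. Of the 11 interleukin-1, receptor, chemokine and transcription factor genes named, Il1b and Ifngr1 passed without each library in turn, and those that did not pass numbered 3 without the 24 h IL-2 library, 6 without the 24 h IL-15 library, 7 without the 4 h IL-2 library and 7 without the 4 h IL-15 library (edgeR adjusted p up to 0.265).

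Within the BCL-2 family, which decides between survival and mitochondrial death, 4 of 16 members fell and none rose, against 1.38% and 1.51% of all genes tested. The list median was 0.04, and 9 of the 16 had a positive change. The falls were on both sides of the balance. Pmaip1, encoding the death-promoting protein NOXA, had 2.06 and 5.83 CPM at 24 h, against 22.0 and 17.4 CPM at 4 h, and Bcl2l11, encoding BIM, had 95.5 and 77.6 CPM at 24 h, against 167 and 151 CPM at 4 h. Bcl2a1b and Bcl2a1d, copies of the NF-kB-induced survival gene A1, fell by 1.54 ± 0.21 and 1.58 ± 0.22. Reads of the 2 copies may be split between them, so they are uncertain as separate genes. Pim1, a survival kinase, fell by 1.45 ± 0.31, and Irs2, an adaptor of insulin receptor signalling, by 2.00 ± 0.43. The amino acid transporter Slc1a4 had 2.28 and 2.21 CPM at 24 h, against 11.8 and 6.60 CPM at 4 h, and Ndrg1, a hypoxia- and stress-induced gene, 16.4 and 15.3 CPM at 24 h, against 41.1 and 50.1 CPM at 4 h. Micall2, whose protein acts in membrane traffic, had 0 counts at 24 h and 210 at 4 h, at least 99.3-fold lower (floor of 3 counts over both 24 h libraries). Vasn, encoding the membrane protein vasorin, had 0.0198 and 0.0754 CPM at 24 h, against 3.15 and 7.21 CPM at 4 h, and Myo1d, an unconventional myosin, 0.158 and 0 CPM at 24 h, against 3.85 and 3.17 CPM at 4 h. With 1 library left out, the number of these 11 genes that no longer passed was 8 without the 24 h IL-2 library, 6 without the 24 h IL-15 library, 9 without the 4 h IL-2 library and 8 without the 4 h IL-15 library (edgeR adjusted p up to 0.234), and Bcl2a1b and Bcl2a1d passed in all 4 fits.

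Macrophage genes were among the largest rises at 24 h: of the 15 named by size, Fcgr1, Marco, Gpnmb, Lpl and Cd5l are typical of macrophages. Of 19 listed myeloid and macrophage markers 8 rose and none fell, with a median of 1.37 and 12 of 19 without overlap between the times, against 1.51% and 23.4% of all genes tested. Of the 19, 14 had a positive change and 5 a negative one. Itgad, an integrin of red pulp macrophages outside the list, was among the largest falls (below). The list summed to 1016 to 1257 CPM at 24 h, against 359 to 366 CPM at 4 h, and to 2343 CPM in untreated cells. Marco, a scavenger receptor of marginal zone macrophages, had 199.8 and 201 CPM at 24 h, against 4.44 and 5.06 CPM at 4 h. The libraries of each time lay close together and the times far apart, and the gene rose by 5.40 ± 0.42 on the log2 scale (SE; edgeR adjusted p = 6.89e-05). The untreated library held 13.8 CPM of it.

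Cd5l, a secreted protein of tissue macrophages that binds lipids, had 285 and 366 CPM at 24 h, against 29.3 and 28.1 CPM at 4 h, and rose by 3.51 ± 0.24 on the log2 scale (SE; edgeR adjusted p = 5.44e-05). Lyz2, the lysozyme of macrophages, had 138 and 217 CPM at 24 h, against 21.8 and 20.7 CPM at 4 h, and its paralog Lyz1 had 53.5 and 87.5 CPM at 24 h, against 9.42 and 9.25 CPM at 4 h. The 2 lysozyme genes are close copies and may share reads, which leaves each of them uncertain. Lpl, the lipoprotein lipase, had 44.1 and 39.4 CPM at 24 h, against 3.34 and 3.62 CPM at 4 h, and Gpnmb, a lysosomal glycoprotein of lipid-laden macrophages, had 24.6 and 42.4 CPM at 24 h, against 0.754 and 0.830 CPM at 4 h. Gpnmb had no count in untreated cells. In all 5 of these genes the 24 h libraries were several-fold above both 4 h libraries. Emr1, which encodes the macrophage antigen F4/80, had 37.7 and 37.9 CPM at 24 h, against 11.3 and 10.7 CPM at 4 h, and Cd68, a lysosomal antigen, 38.6 and 41.7 CPM at 24 h, against 9.42 and 16.1 CPM at 4 h. The complement subunits C1qa and C1qc rose by 1.67 ± 0.28 and 1.37 ± 0.28, with 94.1 and 101 CPM at 24 h, against 38.2 and 24.7 CPM at 4 h for C1qa, and the complement protease gene Cfb rose by 3.73 ± 0.57. Kcnj10, a potassium channel gene, had 316 counts at 24 h and 1 at 4 h, a ratio of 223 (95% exact interval 39.7 to 8826 from counting alone). Its 24 h levels were 1.80 and 5.66 CPM, below the 19.5 CPM of the untreated library. Fcgr1, the high-affinity Fc gamma receptor, had 340 counts at 24 h and 1 at 4 h, a ratio of 239.7 (42.7 to 9494).

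The remaining 11 markers of the list did not pass. Cd68, C1qa, C1qc and Csf1r were named after their values were seen. Csf1r, the receptor for the macrophage growth factor CSF1 and a defining marker, had 21.5 and 41.3 CPM at 24 h, against 38.5 and 38.1 CPM at 4 h, and the untreated library held 338 CPM. Itgam, encoding CD11b, had 0.930 and 0.855 CPM at 24 h and was at 0 in both 4 h libraries. The 13 genes counted next are those named here because they rose. Gpnmb, Lpl, Cd5l, Cfb and Kcnj10 among them were outside the list, and Itgad, which fell, is not included. Cfb and Kcnj10 were named by the size of their rise and stand in no marker list, so the 13 are not all macrophage markers. Among the 13 macrophage genes named, the calls lost numbered 3 without the 24 h IL-2 library, 3 without the 24 h IL-15 library, 7 without the 4 h IL-2 library and 6 without the 4 h IL-15 library (edgeR adjusted p up to 0.173), with Marco, Gpnmb, Lpl, Cd5l, Lyz2 and Lyz1 called in every such fit. The list's count of rises was 3 without the 4 h IL-2 library, 4 without the 4 h IL-15 library, 5 without the 24 h IL-15 library and 6 without the 24 h IL-2 library. T cell receptor genes rose as well (below), and the part of a changed cell mixture in either was not tested.

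The other large rises named by size were of mixed kinds and had low levels. Fpr1, a formyl peptide receptor of phagocytes, had 4.85 and 6.64 CPM at 24 h, against 0.350 and 0 CPM at 4 h. Itih5, whose protein binds hyaluronan, had 2.71 and 3.67 CPM at 24 h, against 0 and 0.0755 CPM at 4 h. Both were close to absent at 4 h, and the untreated library held 3.78 and 2.91 CPM of them. Nuak1, an AMPK-related kinase, had 3.68 and 5.13 CPM at 24 h, against 0.215 and 0.302 CPM at 4 h, and F2rl3, the thrombin receptor PAR4, 13.3 and 4.48 CPM at 24 h, against 0.404 and 1.09 CPM at 4 h. Grm6, a glutamate receptor gene, had 11.1 and 16.8 CPM at 24 h, against 1.10 and 0.981 CPM at 4 h, and Kcnh3, a potassium channel gene, 4.75 and 8.75 CPM at 24 h, against 0.242 and 1.17 CPM at 4 h. In each of these 6 genes both 24 h libraries lay above both 4 h libraries, while the untreated library held 6.42, 15.5, 6.39 and 9.88 CPM of the last 4 in that order. Among the large falls, the secreted protein gene Oaf had 0.574 and 0.905 CPM at 24 h, against 8.77 and 6.68 CPM at 4 h. With 1 library left out, the number of these 7 large-change genes that no longer passed was 5 without the 24 h IL-2 library, 4 without the 24 h IL-15 library, 7 without the 4 h IL-2 library and 6 without the 4 h IL-15 library (edgeR adjusted p up to 0.173), and none passed in all 4 fits.

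**Figure D2:**
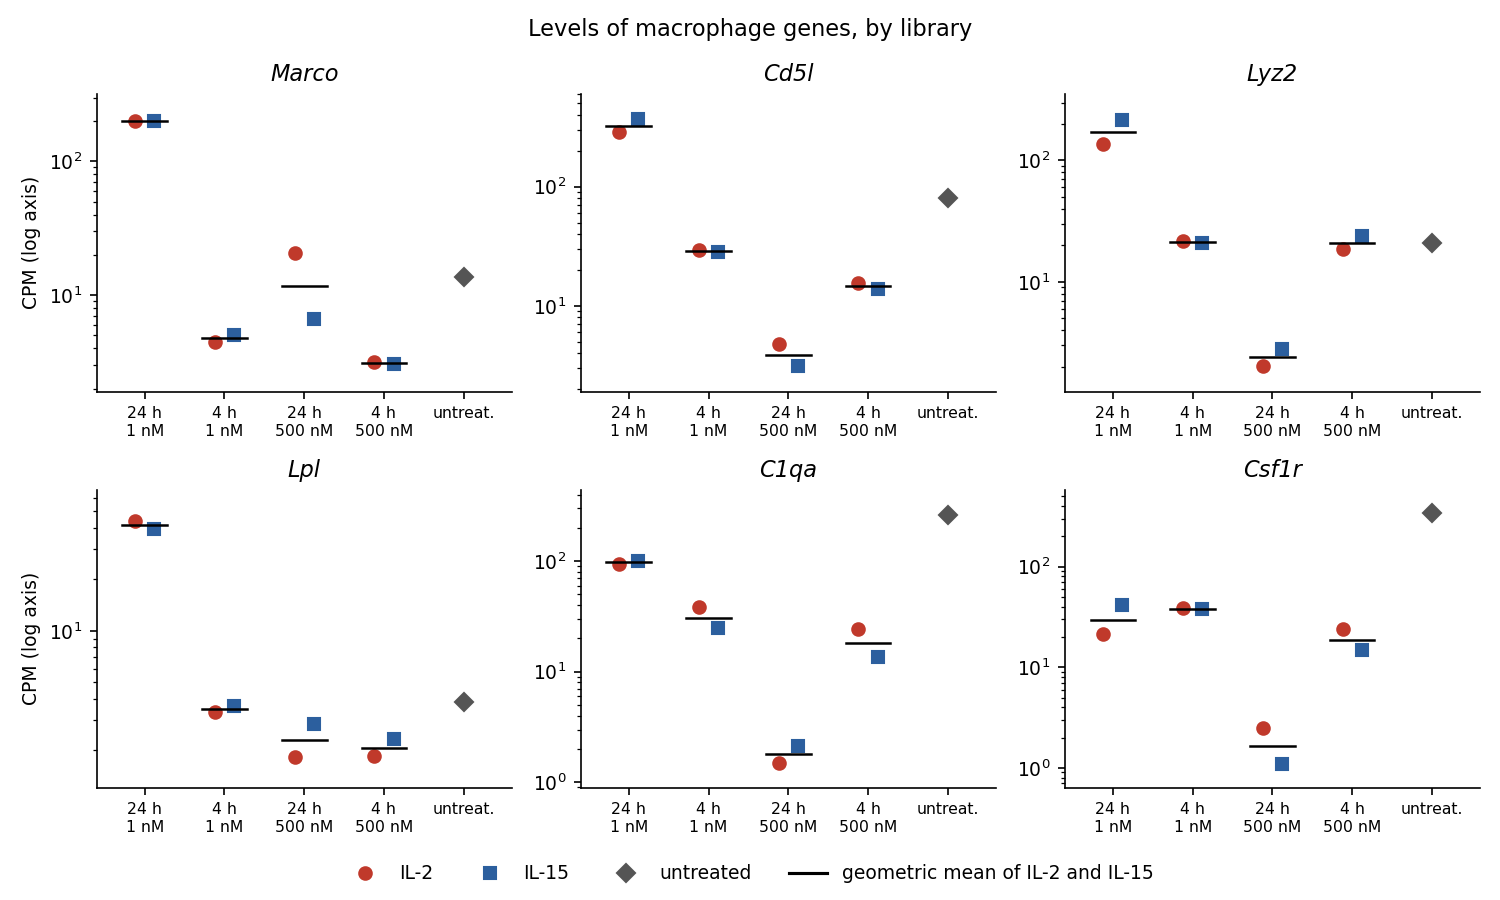
CPM on log axes of 6 macrophage genes at 1 nM and 500 nM and in untreated cells. Circles are IL-2, squares IL-15, diamonds untreated cells and bars the geometric mean of both cytokines. Marco, Cd5l, Lyz2, Lpl and C1qa are higher at 24 h than at 4 h at 1 nM, while at 500 nM Cd5l, Lyz2, C1qa and Csf1r are lower at 24 h.

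Markers of other spleen cells were measured in the same way. Of 15 B cell markers Cd22 and Bank1, both regulators of B cell receptor signalling, rose and none fell, against 1.51% and 1.38% of all genes tested. The list summed to 954 to 957 CPM at 24 h, against 716 to 753 CPM at 4 h. Its median was 0.03, with 8 positive and 7 negative changes, so the list did not rise as a group. Pax5, which defines the B lineage, was at 0 in both 24 h libraries and in the 4 h IL-15 library. Of 15 dendritic cell markers Itgax (CD11c) and H2-Ab1 (an MHC class II chain) fell, with 3.29 and 5.33 CPM at 24 h, against 13.5 and 14.3 CPM at 4 h for Itgax. H2-Ab1 had 495 and 380 CPM at 24 h, against 958 and 755 CPM at 4 h, a large part of the list's sum. Of the 15 markers 10 had a negative change and 5 a positive one, and the list median was -0.47 with IL-2 and -0.03 with IL-15. Itgad, the CD11d integrin of red pulp macrophages, fell by 2.81 ± 0.41, with 1.50 and 5.13 CPM at 24 h, against 17.2 and 25.6 CPM at 4 h. No marker passed among those tested of NK cells (7), neutrophils (5), CD4 and regulatory T cells (7), erythroid cells (7) or stroma and endothelium (8), which does not show that their levels were equal. All 7 erythroid markers had a negative change, 5 of them without overlap between the times against 20.8% of all genes tested, and they summed to 42.7 to 52.8 CPM at 24 h, against 78.8 to 90.9 CPM at 4 h. The 5 neutrophil markers had a median of -2.38 (log2) at low levels, with sums of 1.74 to 3.82 CPM at 24 h, against 2.00 to 4.14 CPM at 4 h. NK cell markers summed to 70.7 to 83.0 CPM at 24 h, against 53.2 to 57.1 CPM at 4 h, and stroma and endothelium markers to 79.4 to 81.7 CPM at 24 h, against 93.9 to 97.9 CPM at 4 h. Of the 5 genes named, none passed without each library in turn, and those that did not pass numbered 3 without the 24 h IL-2 library, 3 without the 24 h IL-15 library, 5 without the 4 h IL-2 library and 5 without the 4 h IL-15 library (edgeR adjusted p up to 0.267).

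Some genes of the T cell receptor apparatus rose. Of 16 listed chains, coreceptors and proximal signalling proteins 5 rose and none fell, against 1.51% and 1.38% of all genes tested. The median was 0.62. The list summed to 7947 CPM in untreated cells, above its sums at both times. Cd8b1, the CD8 beta chain, had 1957 and 1840.0 CPM at 24 h, against 1117 and 1050.4 CPM at 4 h, and rose by 0.81 ± 0.18 on the log2 scale (SE; edgeR adjusted p = 0.0369). Thy1, the T cell surface protein CD90, had 269 and 269 CPM at 24 h, against 123 and 155 CPM at 4 h. Lck, the kinase carried by CD8, had 846 and 874 CPM at 24 h, against 506 and 506 CPM at 4 h, and Lat, the adaptor that the receptor's kinases phosphorylate, 945 and 1056 CPM at 24 h, against 533 and 565 CPM at 4 h. Cd3e, an invariant chain of the receptor, rose by 0.82 ± 0.19. In these 5 genes the 24 h libraries agreed closely and lay above both 4 h libraries. The untreated library held 1615 CPM of Cd8b1, 226 CPM of Thy1, 835 CPM of Lck, 1337 CPM of Lat and 59.9 CPM of Cd3e. These 5 levels were above both 4 h libraries, and that of Lat was above both 24 h libraries too. Cd8a (above) did not pass, with a change of 0.66 ± 0.17 (edgeR adjusted p = 0.061). Among the 5 genes named, the calls lost numbered 5 without the 24 h IL-2 library, 4 without the 24 h IL-15 library, 5 without the 4 h IL-2 library and 4 without the 4 h IL-15 library (edgeR adjusted p up to 0.232), with none called in every such fit. The list's count of rises was 0 without either IL-2 library and 1 without either IL-15 library.

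Some effector genes rose, Gzmb and Gzmc mostly with IL-2. Of 18 cytotoxic effector genes 3 rose and none fell (median 0.78), against 1.51% and 1.38% of all genes tested. Gzmb, the protease granzyme B, had 351 and 31.0 CPM at 24 h, against 13.3 and 18.3 CPM at 4 h, and rose by 3.36 ± 0.77 on the log2 scale (SE; edgeR adjusted p = 0.04). The IL-2 library at 24 h stood far above the other 3, and the IL-15 library at 24 h was closer to those at 4 h. Gzmc, a related protease, had 5.20 and 1.18 CPM at 24 h, against 0.0538 and 0.453 CPM at 4 h, and 2 counts in the 4 h IL-2 library. Nkg7, a protein of cytotoxic granules, had 94.8 and 69.0 CPM at 24 h, against 22.7 and 30.3 CPM at 4 h, higher at 24 h with both cytokines. Ly6c2, a surface protein of memory and effector CD8+ T cells, had 218 and 129.8 CPM at 24 h, against 32.1 and 42.9 CPM at 4 h, and rose by 2.26 ± 0.31 on the log2 scale (SE; edgeR adjusted p = 0.00315). It has a close paralog, Ly6c1, and its reads are uncertain to that extent. The untreated library held 8.88 CPM of Gzmb, no count of Gzmc, 120 CPM of Nkg7 and 163 CPM of Ly6c2. Nkg7 and Ly6c2 were thus higher in untreated cells than at 4 h, and Nkg7 also higher than at 24 h.

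The chemokine receptors Cxcr3 and Cxcr6, which guide effector cells into inflamed tissue, both rose. Cxcr3 had 152 and 152 CPM at 24 h, against 59.3 and 78.2 CPM at 4 h. Cxcr6 had 87.8 and 129 CPM at 24 h, against 38.9 and 14.7 CPM at 4 h, and was lowest with IL-15 at 4 h and highest with IL-15 at 24 h. Xcl1, a chemokine that attracts cross-presenting dendritic cells, had 24.2 and 9.86 CPM at 24 h, against 5.57 and 5.70 CPM at 4 h. Il12rb1, a chain of the IL-12 receptor, had 30.1 and 11.6 CPM at 24 h, against 6.94 and 3.70 CPM at 4 h, and rose by 1.92 ± 0.34. Socs1, an inhibitor of JAK kinases induced by cytokines, had 54.6 and 44.2 CPM at 24 h, against 20.6 and 19.4 CPM at 4 h, nearly the same with both cytokines, and rose by 1.30 ± 0.19 on the log2 scale (SE; edgeR adjusted p = 0.00397). Id3, a factor that restrains E proteins in memory precursors, had 53.4 and 45.0 CPM at 24 h, against 20.3 and 19.6 CPM at 4 h. The untreated library held 105 CPM of Cxcr3, 47.2 CPM of Cxcr6, 11.2 CPM of Xcl1 and 21.9 CPM of Il12rb1. It held 19.2 CPM of Socs1 and 54.3 CPM of Id3. All of these but Socs1 were above both 4 h libraries, and Id3 was above both 24 h libraries too. Of the 10 effector genes named, none passed without each library in turn, and those that did not pass numbered 6 without the 24 h IL-2 library, 1 without the 24 h IL-15 library, 9 without the 4 h IL-2 library and 7 without the 4 h IL-15 library (edgeR adjusted p up to 0.359).

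Of 35 S phase and replication genes 1 rose and none fell, and of 30 mitosis genes 1 rose and none fell, against 1.51% and 1.38% of all genes tested. A single call in a list of this size is near the background, and the list medians were 0.41 and 0.72, against 0.03 over all genes. These medians came mostly from IL-2: for S phase the median was 0.82 with IL-2 and 0.097 with IL-15, and for mitosis 1.34 and 0.086. Ccne1, encoding cyclin E1 that starts S phase, had 15.9 and 11.9 CPM at 24 h, against 3.31 and 4.45 CPM at 4 h. Nuf2, a kinetochore protein, had 4.85 and 1.36 CPM at 24 h, against 0.188 and 0.566 CPM at 4 h. Of 21 genes of glycolysis and glucose uptake 3 rose (median 0.35). Tpi1 and Eno1, both glycolytic enzymes, rose by 1.06 ± 0.20 and 0.98 ± 0.19. Pdk1, a kinase that inhibits pyruvate dehydrogenase, rose by 1.23 ± 0.19 on the log2 scale (SE; edgeR adjusted p = 0.00482). It had 499 and 557 CPM at 24 h, against 238 and 209 CPM at 4 h, and 582 CPM in untreated cells. Rrp12, a ribosome assembly factor, rose by 1.97 ± 0.23 on the log2 scale (SE; edgeR adjusted p = 0.00114) with 41.3 and 43.4 CPM at 24 h, against 11.9 and 9.70 CPM at 4 h, the 1 call among 26 ribosome biogenesis genes. No gene passed among 33 ribosomal proteins (median -0.17), 30 respiratory chain genes (0.06), 26 proteasome genes (0.15), 20 unfolded protein response genes (-0.03), 21 cholesterol synthesis genes (-0.07) or 12 G1 cyclins and CDK inhibitors (0.08). With 1 library left out, the number of these 6 genes that no longer passed was 4 without the 24 h IL-2 library, 0 without the 24 h IL-15 library, 4 without the 4 h IL-2 library and 4 without the 4 h IL-15 library (edgeR adjusted p up to 0.327), and Rrp12 passed in all 4 fits.

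The change with time was also compared between the 2 cytokines, which had 1 library at each time. The change with IL-2 minus the change with IL-15 was tested in a fit that left 1 residual degree of freedom. Every library at 1 nM had its own term in that fit. The spread behind the SEs and p-values of this difference thus came from the libraries at the higher dose and from edgeR's prior. It held no scatter between libraries at 1 nM. In this test 197 genes passed (1.46%), 170 with the higher change under IL-2 (1.26%) and 27 with the lower (0.2%). Scaled by library totals, 135 of 183 had the higher change under IL-2. limma-voom called 0 of 13479 genes, while DESeq2 kept most of the calls named in the text. The calls thus depend on how a method estimates the spread, and they have no replicate check. Of 25 IL-2 and STAT5 targets, 2 of which rose and 3 fell over both cytokines, 10 were among them, against 1.46% of all genes tested. The median change over the 25 was 0.20 with IL-2 and -0.90 with IL-15. Gzmb (above) differed by 3.96 ± 0.31 (log2, SE; edgeR adjusted p = 1.22e-08). Cish, a feedback inhibitor that STAT5 induces directly, had 156 and 36.5 CPM at 24 h, against 152 and 268 CPM at 4 h. It was level with IL-2 and was lowest with IL-15 at 24 h, a difference of 2.92 ± 0.28 (log2, SE; edgeR adjusted p = 4.29e-07). Il2ra, the IL-2 receptor alpha chain, had 24.4 and 2.57 CPM at 24 h, against 12.7 and 14.7 CPM at 4 h, higher at 24 h with IL-2 and lower with IL-15, which differed by 3.46 ± 0.49 (log2, SE; edgeR adjusted p = 0.000135). The survival gene Bcl2 had 208 and 172 CPM at 24 h, against 179.6 and 508 CPM at 4 h. Its high value was in the 4 h IL-15 library, and the changes differed by 1.78 ± 0.29 (log2, SE; edgeR adjusted p = 0.00077). Ccnd2, encoding cyclin D2, had 311 and 226 CPM at 24 h, against 271 and 439 CPM at 4 h, a difference of 1.16 ± 0.27.

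Further genes of this kind were picked after their values were seen. Lta, the cytokine lymphotoxin alpha, had 209 and 41.8 CPM at 24 h, against 82.4 and 121 CPM at 4 h, and Osm, the cytokine oncostatin M, had 35.1 and 14.1 CPM at 24 h, against 14.0 and 31.4 CPM at 4 h. Both were higher at 24 h with IL-2 and lower with IL-15, and the changes differed by 2.87 ± 0.27 and 2.48 ± 0.33. Of the 30 interferon response genes 10 passed edgeR's test of the cytokine difference, against 1.46% of all genes tested. Among the 10 were the interferon gamma-induced GTPases Igtp and Gbp2. Igtp had 2125 and 427 CPM at 24 h, against 785 and 861 CPM at 4 h, and Gbp2 had 472 and 96.7 CPM at 24 h, against 151 and 119 CPM at 4 h. In both, the 24 h IL-2 library was highest and the 24 h IL-15 library lowest. Of 35 S phase genes 9 passed, and of 30 mitosis genes 6, against the same 1.46%. Cdc2a, the mitotic kinase CDK1, had 37.1 and 6.06 CPM at 24 h, against 4.06 and 7.02 CPM at 4 h, and Uhrf1, which copies DNA methylation during replication, had 40.7 and 6.94 CPM at 24 h, against 9.31 and 9.51 CPM at 4 h.

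By the naming rule, the factor Mycn had 7.14 and 0.101 CPM at 24 h, against 0.242 and 0.642 CPM at 4 h, and the centromere gene Cenpp had 6.85 and 1.46 CPM at 24 h, against 0.458 and 4.19 CPM at 4 h, both higher at 24 h with IL-2 alone. Among the 27 genes with the lower change under IL-2, Dtx4, a Deltex ubiquitin ligase of the Notch pathway, had 16.7 and 30.2 CPM at 24 h, against 15.1 and 3.89 CPM at 4 h, and Frmd4b had 4.49 and 7.54 CPM at 24 h, against 8.05 and 2.94 CPM at 4 h. Xiap, an inhibitor of caspases, had 7.12 and 9.68 CPM at 24 h, against 19.5 and 5.32 CPM at 4 h, and Tiparp, a target of the aryl hydrocarbon receptor, 6.51 and 8.27 CPM at 24 h, against 15.1 and 2.53 CPM at 4 h. In these 4 genes the lowest library was IL-15 at 4 h, the shallowest of the 4. Cxcr6, which rose with both, rose more with IL-15, by a difference of -1.96 ± 0.41 (log2, SE; edgeR adjusted p = 0.0091). Bcl3, which fell with both, fell more with IL-15, a difference of 1.38 ± 0.33 (log2, SE; edgeR adjusted p = 0.0244).

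**Figure D3:**
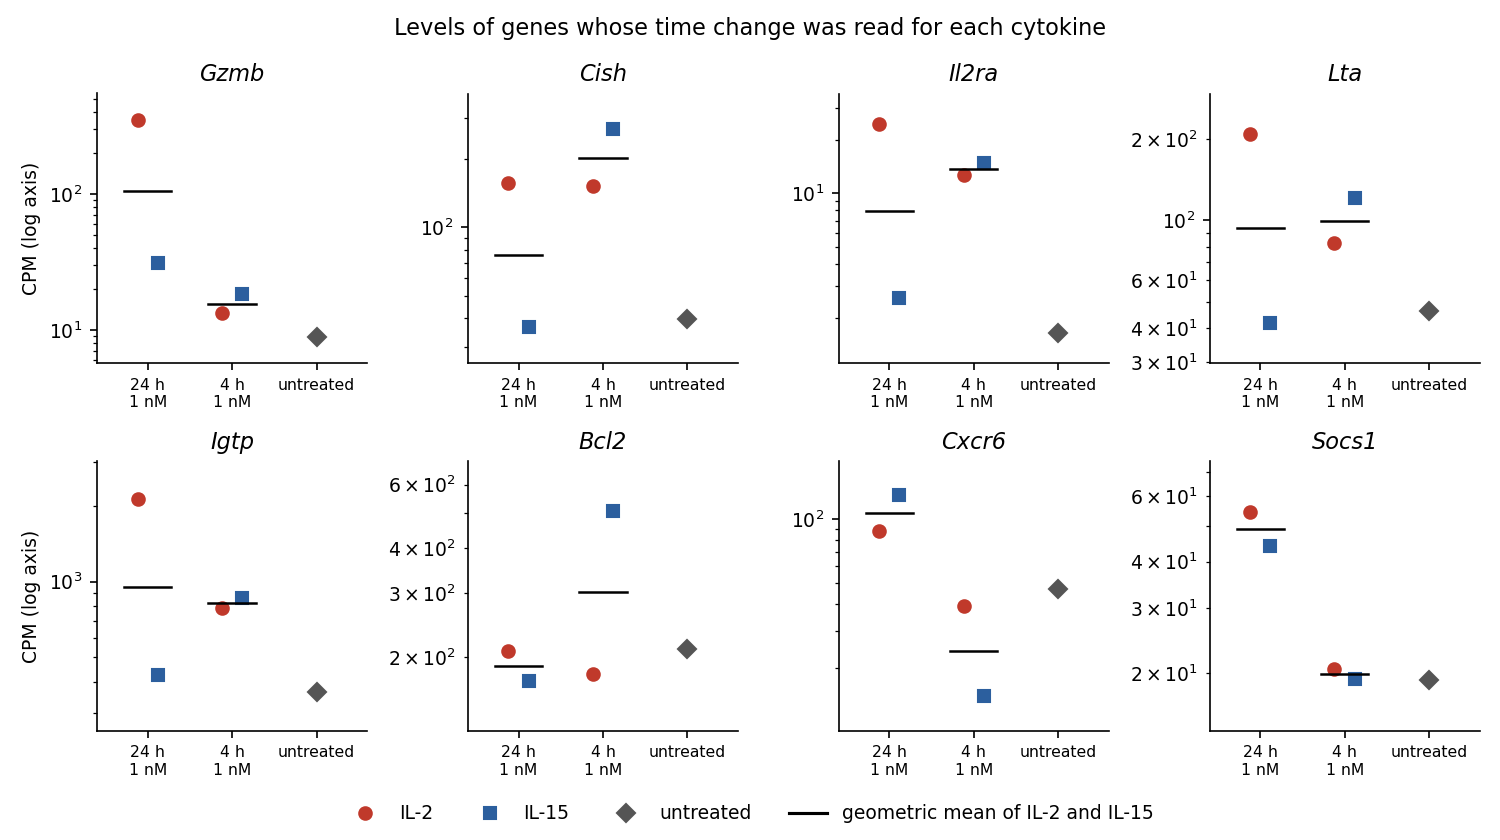
CPM on log axes of 8 genes at 1 nM and in untreated cells. Circles are IL-2, squares IL-15, diamonds untreated cells and bars the geometric mean of both cytokines. Gzmb, Il2ra, Lta and Igtp are highest with IL-2 at 24 h, Cish is lowest with IL-15 at 24 h, Bcl2 is highest with IL-15 at 4 h, and Socs1 is higher at 24 h with both.

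The same time step at 500 nM, measured in 4 other libraries, was set beside the step at 1 nM. At 500 nM 3536 genes passed (26.2%), 1797 up (13.3%) and 1739 down (12.9%). Of the 390 genes called at 1 nM, 252 were also called at 500 nM, which is 64.6% of the 1 nM set and 7.13% of the 500 nM set, and 232 of these moved the same way. Of the 20 that moved the opposite way, 19 rose at 1 nM and fell at 500 nM. The step at 1 nM minus the step at 500 nM passed its own test in 1188 genes (8.81%), higher at 1 nM in 641 (4.76%) and lower in 547 (4.06%), and 105 of the 390 were among them. The count was 400 without the 4 h IL-15 library at 1 nM.

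Macrophage genes had the higher step at 1 nM. Of the 19 markers 13 had the higher step at 1 nM and none the lower, against 4.76% and 4.06% of all genes tested. The list medians were 1.37 at 1 nM and -2.30 at 500 nM. At 500 nM Lyz2 had 2.04 and 2.82 CPM at 24 h, against 18.6 and 23.7 CPM at 4 h, and the steps differed by 6.14 ± 0.34 (log2, SE; edgeR adjusted p = 5.39e-06). Cd5l had 4.82 and 3.15 CPM at 24 h, against 15.7 and 13.9 CPM at 4 h, a difference of 5.41 ± 0.34 (log2, SE; edgeR adjusted p = 9.30e-06). Marco was higher at 24 h at this dose too, with 20.8 and 6.59 CPM at 24 h, against 3.15 and 3.03 CPM at 4 h, but its steps differed by 3.34 ± 0.53 (log2, SE; edgeR adjusted p = 0.00414). C1qa had 1.50 and 2.14 CPM at 24 h, against 24.2 and 13.7 CPM at 4 h at 500 nM, and Csf1r had 2.46 and 1.10 CPM at 24 h, against 24.0 and 14.8 CPM at 4 h, both lower at 24 h. The steps of Csf1r differed by 3.18 ± 0.53 (log2, SE; edgeR adjusted p = 0.00571). The marker list summed to 49.2 to 67.9 CPM at 24 h and 500 nM, against 216 to 267 CPM at 4 h and 500 nM.

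Division genes had the lower step at 1 nM. At 500 nM 33 of 35 S phase genes and 29 of 30 mitosis genes rose, against 13.3% of all genes tested, with medians of 2.58 and 3.31. In these lists 29 and 18 genes had the lower step at 1 nM, against 4.06% of all genes tested. Rrm2, a subunit of ribonucleotide reductase chosen after its values were seen, had at 1 nM 84.4 and 22.7 CPM at 24 h, against 16.3 and 17.2 CPM at 4 h, and at 500 nM 541 and 534 CPM at 24 h, against 11.9 and 16.0 CPM at 4 h. Mki67, encoding the proliferation antigen Ki-67 and chosen likewise, had at 1 nM 7.38 and 6.41 CPM at 24 h, against 8.37 and 5.02 CPM at 4 h, and at 500 nM 62.1 and 55.1 CPM at 24 h, against 2.91 and 6.39 CPM at 4 h. At 500 nM both genes were far higher at 24 h than at 4 h, while at 1 nM Mki67 overlapped between the times. The naming rule gave Spc24, a kinetochore protein, and Esco2, which acetylates cohesin, with differences of -4.37 ± 0.52 (log2, SE; edgeR adjusted p = 0.00107) and -4.79 ± 0.86 (log2, SE; edgeR adjusted p = 0.0071). Mcm7, a subunit of the replicative helicase chosen after its values were seen, differed by -2.46 ± 0.28. Melk and Brca1, a mitotic kinase and a DNA repair protein, differed by -4.52 ± 0.62 and -3.89 ± 0.59. Glycolysis followed, with 13 of 21 genes up at 500 nM and 8 with the lower step at 1 nM. Tpi1, up at both doses, differed by -2.29 ± 0.29 (log2, SE; edgeR adjusted p = 0.00127). Pdk1 was the exception, with 215 and 242 CPM at 24 h, against 233 and 299 CPM at 4 h at 500 nM, and a difference of 1.44 ± 0.26 (log2, SE; edgeR adjusted p = 0.0077).

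Most quiescence genes fell at 500 nM. Of 18 FOXO and quiescence genes 15 fell at 500 nM, against 12.9% of all genes tested, and 11 had the higher step at 1 nM, against 4.76%. At 1 nM 1 of the 18 fell (Irs2), near the background of 1.38%. The list had medians of -0.08 at 1 nM and -1.26 at 500 nM. Klf2, a transcription factor of resting T cells chosen after its values were seen, had at 1 nM 269 and 304 CPM at 24 h, against 313 and 328 CPM at 4 h, and at 500 nM 34.2 and 39.2 CPM at 24 h, against 152 and 162 CPM at 4 h. Btg1, an antiproliferative gene chosen likewise, differed by 1.80 ± 0.25 (log2, SE; edgeR adjusted p = 0.00232). Il7r, the IL-7 receptor alpha chain, had 475 and 543 CPM at 24 h, against 540.0 and 319 CPM at 4 h at 1 nM, and its steps differed by 2.08 ± 0.38 (log2, SE; edgeR adjusted p = 0.00779). Klf2 and Il7r showed no call at 1 nM, which does not show that their levels were equal. Of the 30 interferon genes 23 fell at 500 nM and 9 had the higher step at 1 nM. At 500 nM Rsad2 had 37.5 and 60.1 CPM at 24 h, against 612 and 1465 CPM at 4 h, a difference between the steps of 2.35 ± 0.41 (log2, SE; edgeR adjusted p = 0.00639). NF-kB genes had nearly equal steps, with 15 of 16 down at 500 nM and medians of -1.21 at 1 nM and -1.23 at 500 nM, and 1 of 16, Birc3, differed by dose. Il1b was lower at 24 h at 1 nM (above) but had at 500 nM 45.6 and 14.5 CPM at 24 h, against 40.2 and 34.8 CPM at 4 h, a difference of -3.09 ± 0.49 (log2, SE; edgeR adjusted p = 0.00414).

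**Figure D4:**
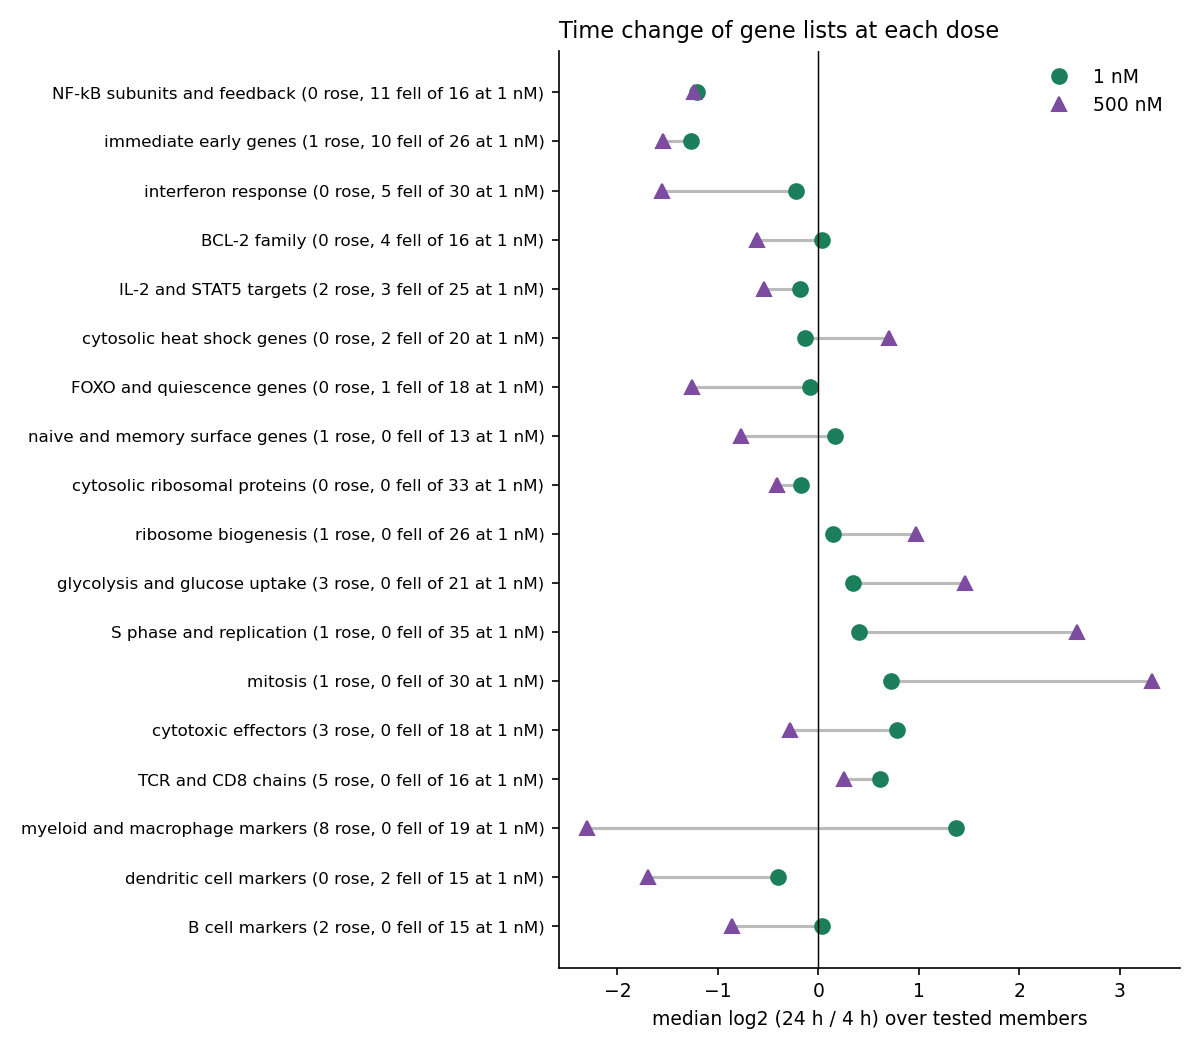
Median log2 of 24 h over 4 h over the tested members of 18 gene lists, at 1 nM (circles) and 500 nM (triangles), with the number of members that rose and fell at 1 nM beside each name. The medians nearly coincide for NF-kB genes (-1.21 and -1.23), part widest for myeloid and macrophage markers (1.37 and -2.30), and lie far apart for S phase (0.41 and 2.58) and mitosis (0.72 and 3.31). Each median is over both cytokines, which differed at 1 nM for S phase and mitosis.

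Among the other lists, chemokines and their receptors had 3 rises and 1 fall of 18, cytokine receptors 1 rise and 2 falls of 22, effector and memory transcription factors 1 rise and 2 falls of 18, hypoxia genes 1 rise and 1 fall of 18, naive and memory surface genes 1 rise of 13, amino acid and ATF4 genes 1 fall of 27 and p53 targets 1 fall of 16. Over all genes tested 1.51% rose and 1.38% fell, so that single calls in lists of this size are near the background and nothing is read from them. NK receptors had no call among 11. Several genes central to IL-2 biology did not pass over both cytokines at 1 nM. Il2rb encodes the shared beta chain and had 397 and 282 CPM at 24 h, against 365 and 407 CPM at 4 h. Myc, a driver of cell growth, had 310.1 and 255 CPM at 24 h, against 286 and 356 CPM at 4 h, and the cell cycle inhibitor Cdkn1a (p21) 18.8 and 12.8 CPM at 24 h, against 26.6 and 25.8 CPM at 4 h. The 2 times overlapped for Il2rb and Myc but not for Cdkn1a, whose edgeR adjusted p was 0.232. Ldha, lactate dehydrogenase A, had 932 and 685 CPM at 24 h, against 487 and 608 CPM at 4 h (edgeR adjusted p = 0.181), and Ccnb1, the mitotic cyclin B1, 10.5 and 2.51 CPM at 24 h, against 2.31 and 1.06 CPM at 4 h (edgeR adjusted p = 0.121).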

How the data were processed

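The members and the gene lists were chosen with earlier results of these data known. The deposited files hold raw read counts per RefSeq transcript, which the authors made from reads aligned with Bowtie 0.12.4 to mm8 after CASAVA 1.8, per the submitters' processing notes. The authors' RPKM columns divide the same counts by exon length and 1 total per library, per the file headers and values, and were not tested. Strand use and the treatment of reads with several matches: not given in the sources used here. For each of 20418 symbols the transcript with the highest mean count over 9 libraries was used. Genes passed filterByExpr (minimum count 10, total 15), and TMM set the scaling. The quasi-likelihood fit of edgeR 4.0.16 (legacy mode, R 4.3.3) had 6 coefficients for 9 libraries and 3 residual degrees of freedom. The IL-2 minus IL-15 contrast used 8 coefficients. Benjamini-Hochberg adjustment ran over 13479 genes. Alternatives were limma-voom 3.58.1, DESeq2 1.42.0, other scalings, filters and designs, and each library left out. The procedure was tested on simulated counts. Genes named were, by rule, those past the threshold with the largest changes at a mean of at least 50 counts (15 a direction), up to 5 called members of each of 36 lists, 10 a direction for each difference of steps, and a set of genes given whatever their change. Not every gene this rule gave is described here. Other genes are marked as chosen later. Promoter windows are RefSeq's on GRCm38.p6, matched by symbol for 10654 of 13479 genes tested.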

Additional observations from a re-analysis of the deposited data

Results flagged for a closer look

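The results listed here passed a test of a difference between 2 time changes. The time change at 1 nM minus that at 500 nM passed in 1188 genes at an edgeR adjusted p under 0.05. Among genes named in the text, the change was higher at 1 nM (log2 difference) for Birc3 (1.12), Fos (1.30), Ier3 (1.44), Rsad2 (2.35), Mx2 (2.48), Ifit1 (1.55), Pdk1 (1.44), Marco (3.34), Lpl (3.44), Cd5l (5.41), Lyz2 (6.14), Lyz1 (5.87), Emr1 (2.59), Cd68 (2.35), C1qa (5.0), C1qc (4.44), H2-Ab1 (1.27), Bank1 (1.56), Csf1r (3.18), Il7r (2.08), Klf2 (1.94), Btg1 (1.80), Dtx4 (3.39), Frmd4b (3.61), Gbp2 (2.43), Nuak1 (6.46) and Grm6 (4.64). It was lower at 1 nM for Dusp1 (-1.73), Il1b (-3.09), Ccl4 (-1.59), Tnip3 (-5.46), Tpi1 (-2.29), Ldha (-1.26), Esco2 (-4.79), Spc24 (-4.37), Melk (-4.52), Brca1 (-3.89), Rrm2 (-3.67), Mki67 (-3.61), Mcm7 (-2.46) and Uhrf1 (-2.81). Kcnj10, Fcgr1 and Itih5 passed as well, higher at 1 nM, with edgeR adjusted p of 0.00316, 0.0141 and 0.00911 in that order, but they had 1, 1 and 2 counts over both 4 h libraries at 1 nM and no size of the difference is given.

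The time change with IL-2 minus that with IL-15 at 1 nM passed in 197 genes by edgeR. Among named genes it was higher with IL-2 for Bcl3 (1.38), Gzmb (3.96), Il2ra (3.46), Cish (2.92), Ccnd2 (1.16), Bcl2 (1.78), Rrm2 (1.97), Mycn (7.49), Cenpp (5.41), Lta (2.87), Osm (2.48), Igtp (2.45), Gbp2 (1.94), Uhrf1 (2.58), Cdc2a (3.40) and F2rl3 (3.0). It was lower with IL-2 for Cxcr6 (-1.96), Dtx4 (-2.81), Frmd4b (-2.20), Xiap (-2.32) and Tiparp (-2.92). Gzmc passed as well, higher with IL-2 (edgeR adjusted p = 0.0138), but had 2 counts with IL-2 at 4 h, and no size is given. Each cytokine has 1 library at each time, and limma-voom called 0 of 13479 genes here, so these differences have no replicate check. The spread used in their test came from the libraries at the higher dose and from edgeR's prior, not from those at 1 nM. Groups of 1 library per condition were too small for a search for single libraries that stand apart.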

How the results depend on the processing

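The comparison of 24 h against 4 h at 1 nM called 390 genes by edgeR and 825 by DESeq2, of which 388 were shared, and 706 passed the rule of a 2-fold change in both pairs. Leaving out 1 library gave 73 to 330 genes. The other scalings, filters, transcript choices and designs, and limma-voom, stayed within 1.5 times. The test of dose by time called 1188 genes, 1792 by DESeq2 and 400 to 1102 with 1 library left out. The test of cytokine by time at 1 nM called 197 genes, 125 with median-of-ratios scaling and 0 with limma-voom. Of 93 named genes called at 1 nM, 68 passed under every alternative other than leaving out a library and 22 under all alternatives. No list's median changed sign with the other scalings.

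Leaving out a library turned the sign of a change at 1 nM (log2) 8 times, in 7 genes that had not passed. The ranges over the 4 fits were -1.11 to 0.36 for Csf1r, -2.42 to 0.84 for Il2ra, -0.45 to 0.048 for Il2rb, -0.22 to 0.80 for Il7r, -0.40 to 0.042 for Myc, -0.77 to 0.037 for Ccnd2 and -1.51 to 0.16 for Bcl2. The cause was not tested. No paired analysis was possible because each group has 1 library and no replicate number pairs them; the libraries pair by cytokine instead, for which the fit had a term. With the 4 libraries alone, 564 genes passed with a cytokine term (365 of the 390) and 269 without it (250 of the 390). The depth of the 4 h IL-15 library, 27158143 counts, limits what can be read from genes under about 1 CPM.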
